A study of Mus musculus with 18 samples.

Results

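The hippocampus of newborn Rnf2 conditional knockout (cKO) mice was compared with that of control mice by RNA-seq. Of the 18 libraries of the series, 4 belong to this comparison, with 2 control and 2 cKO libraries. The genes compared were protein-coding and averaged 0.5 FPKM or more over the 4 libraries, where FPKM are fragments mapped, scaled to gene length and library size. These 12924 genes are part of 15770 genes that passed this filter, of 22046 protein-coding genes listed and of 54532 genes in all.

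Rnf2 encodes Ring1B, the catalytic ubiquitin ligase of Polycomb repressive complex 1 (PRC1). PRC1 places ubiquitin on histone H2A and keeps developmental genes, the Hox genes above all, silent in cells where they do not belong. In variant PRC1.1, KDM2B brings Ring1B to unmethylated CpG islands through its CxxC zinc finger. PRC2, the partner complex, methylates histone H3 at the same genes. The Hox clusters, which pattern the trunk and hindbrain, are classic targets and are normally silent in the forebrain.

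The mice labelled Rnf2Emx1-cKO came from floxed Rnf2 mice crossed to Emx1-Cre mice, and controls were Rnf2fl/+ or Rnf2fl/fl, which the labels do not tell apart. Emx1-Cre acts in progenitors of the dorsal telencephalon and their progeny, so interneurons, microglia, vessels and meninges of a cKO hippocampus keep an intact gene. All tissue was taken at postnatal day 0 (P0). The study asked whether loss of PRC1 function accounts for the effects of Kdm2b loss on hippocampal progenitors. A library is described by its group and number. No source says whether a library holds 1 animal or a pool, so p values measure the spread between these libraries.

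Depth was similar, with 14654894 to 16334420 reads on genes. The mitochondrially encoded mt-Co1 was the most abundant gene in each library. Markers of forebrain excitatory cells were present throughout, with Neurod6 at 186 to 219 FPKM and Prox1, a dentate granule cell factor, at 19.5 to 22.7 FPKM. Transcripts of choroid plexus, the epithelium that makes cerebrospinal fluid, set cKO 1 apart. Its marker transthyretin (Ttr) was at 233 FPKM in cKO 1 against 47.5 and 11.5 FPKM in the controls and 6.19 FPKM in cKO 2.

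Rnf2 itself was measured at 32.3 and 30.8 FPKM in the controls and at 28.5 and 27.8 FPKM in the cKO libraries. Both cKO libraries were below both controls. The log2 fold change was -0.16 ± 0.10 (SE, n = 2 and 2), and the gene did not pass the test (limma, adjusted p = 0.762). It was -0.02 after correction for GC content, described below. The table gives the gene as a whole and does not separate the floxed exons, and cells outside the Emx1 lineage keep the gene. The value therefore does not check the labels. In P0 neocortex the study reported a large decrease of ubiquitin on histone H2A after loss of Rnf2. That mark was not measured in these libraries.

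Genes that were silent in control hippocampus were read in both cKO libraries. The 39 genes of the 4 Hox clusters together had 2 and 3 reads in the controls against 126 and 173 reads in the cKO libraries. The exact 95% Poisson intervals were 0.242 to 7.22 and 0.619 to 8.77 reads in the controls and 105 to 150.0 and 148 to 200.8 reads in the cKO libraries. The depth-scaled ratio of cKO to control was 55.9, with an exact 95% interval of 23.7 to 173. These intervals cover counting error only. With 2 libraries against 2 an exact permutation test cannot give p below 0.333, and no other test was run on the sums. The source of these reads was not tested. No Hox gene reached a mean of 0.5 FPKM over the 4 libraries, so none is among the 12924 genes tested.

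The reads came from all 4 clusters. The HoxC cluster on chromosome 15 had 0 and 0 reads in the controls and 81 and 129 reads in the cKO libraries. The HoxB cluster had 2 and 3 against 21 and 18 reads. For HoxD the counts were 0 and 0 against 18 and 19 reads, and for HoxA 0 and 0 against 6 and 7 reads. Of the 39 genes, 9 had more reads in each cKO library than in each control, 0 had fewer, and 23 had no read in any of the 4 libraries. Over the 9122 protein-coding genes under the filter both cKO libraries were above both controls in 5.20% and below in 6.98%.

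Hoxc4, a factor of cervical identity, had 0 and 0 reads in controls and 22 and 50 reads in cKO. This is at least 22.4-fold higher, with the controls set at a floor of 3 reads over the group. Hoxc9, a thoracic Hox gene, went from 0 and 0 to 24 and 33 reads, at least 17.8-fold higher. Hoxb13, the most posterior gene of its cluster, was the 1 Hox gene with reads in each control, with 1 and 3 against 19 and 14 reads, a ratio of 7.71 (exact 95% interval 2.74 to 29.96). In these 3 genes the groups did not overlap. Hoxc13, Hoxd8 and Hoxc6 were likewise at 0 in both controls and had 10 to 21 reads in each cKO library. Hoxc4 had the highest mean level in cKO of the Hox genes, at 0.518 and 1.20 FPKM.

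A test on the recovered reads (limma-voom, all genes with at least 10 reads in all) reached 6 Hox genes. These 6 came to 10 reads only through the cKO libraries, so the filter fixed their direction. All 6 were higher at an unadjusted p under 0.05, which for this reason adds no support to the reads themselves. At an adjusted p under 0.05, 0 passed, the smallest adjusted p being 0.364. Over all protein-coding genes in that test 10 passed (0.0652%), 9 of them higher (0.0586%). In that test 2.57% of 15348 protein-coding genes were called higher at the thresholds used below and 2.44% lower. The library kit does not mark strand, so reads from antisense transcripts within the clusters are not told apart. In the Kdm2b comparison of P0 hippocampus, tabulated separately, the same 39 genes summed to 0 to 0.0903 FPKM in 3 controls and 0.0636 to 0.0927 FPKM in 3 cKO libraries. The sums in the Rnf2 table were 0.0563 and 0.0874 FPKM in controls and 3.10 and 4.60 FPKM in cKO. In cortex the sum did not exceed 0.117 FPKM in any of the 4 Kdm2b libraries.

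The same pattern was looked for over all protein-coding genes, by a rule set after these values were seen. At most 3 reads in both controls together and at least 10 reads in each cKO library were found for 11 of 22046 genes (0.0499%). The reverse was found for 1 gene (0.00454%), the eye-field factor Six6, with 10 and 11 reads in controls and 1 and 0 reads in cKO. Of the 11 genes, 9 are in the homeobox family by the table's own annotation, a family that holds 1.04% of protein-coding genes, and the other 2 are Pax1 and Pax2. Since the rule used these reads, the counts are a description.

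Pax1, a factor of the developing vertebral column, had 0 and 0 reads in controls and 40 and 52 reads in cKO, at least 28.7-fold higher. Nkx2-3, a gut and spleen homeobox gene, had 0 and 0 against 16 and 18 reads, at least 10.6-fold higher. Both genes were therefore read in both cKO libraries and in neither control. Pax2, a kidney and midbrain-hindbrain factor, had 1 and 2 against 27 and 11 reads. Gbx2, of the anterior hindbrain and thalamus, had 0 and 1 against 19 and 13 reads. Lhx4, a pituitary and motor neuron factor, had 1 and 0 against 11 and 20 reads.

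**Figure D1:**
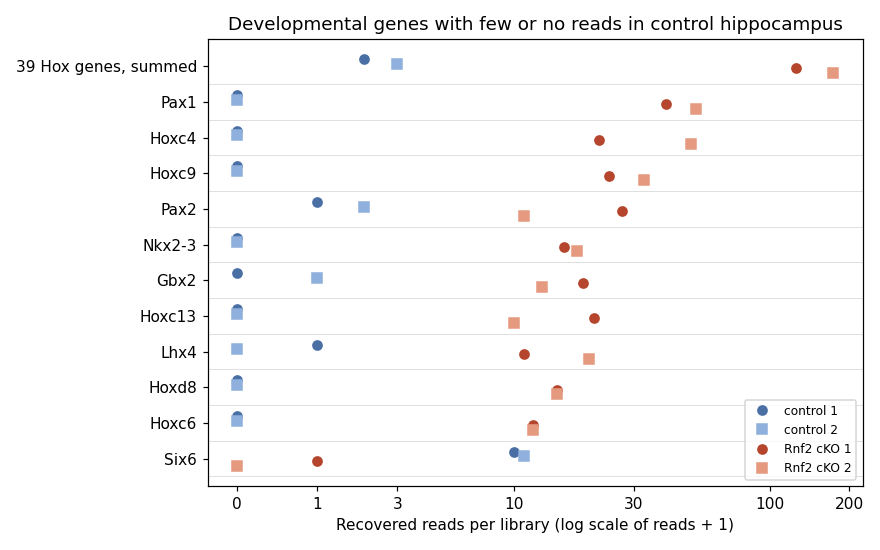
Recovered reads per library (log axis of reads + 1) for the sum of 39 Hox genes, 10 of the 11 genes that were near silence in controls and read in both cKO libraries, and Six6, the 1 gene with the reverse pattern; blue points are controls and red points Rnf2 cKO. The Hox sum stood at 2 and 3 reads in controls and at 126 and 173 reads in cKO, and the genes were picked by these reads.

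Of 76 further classic Polycomb targets that were listed, 60 were under the filter. In 14 of the 60 (23.3%) each cKO library was above each control, and in 2 (3.33%) each was below, against the 5.20% and 6.98% over all protein-coding genes under the filter. No read was found in any library for 14 of the 76, among them the hindbrain and spinal cord factors Phox2a, Pax7, Lhx3 and Evx1. Of the 16 that passed the filter, 3 were called higher and 1 lower at the thresholds given below. Over all genes tested these thresholds called 1.99% higher and 1.20% lower. With GC content corrected for, 1 of the 16 was higher and 1 lower, with a median log2 fold change of 0.03. Cdkn2b, which encodes the CDK inhibitor p15, was at 0.817 and 0.555 FPKM in controls and 1.57 and 2.22 FPKM in cKO, a log2 fold change of 0.77 ± 0.21 (limma, adjusted p = 0.644). The groups did not overlap, but the call was lost without control 2 (0.66) and without cKO 2 (0.61). Its neighbour Cdkn2a, the textbook Polycomb target that encodes p16 and p19Arf, was under the filter, with 3 and 1 reads in controls against 10 and 21 reads in cKO. Vax1, a factor of the ventral forebrain and optic stalk, was at 2.51 and 3.74 against 5.26 and 5.26 FPKM. Lhx1, expressed in Cajal-Retzius cells, was at 2.36 and 2.72 against 3.69 and 3.95 FPKM. Vax1 and Lhx1 lost the call once GC content was corrected for, and Cdkn2b kept it. Tbx18 was the member called lower, and is also a marker of meninges, described below.

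CpG-rich promoters are where PRC1.1 binds, so the 250 bases before the start of 2 genes that were read in cKO only, and of a gene that was lower, are shown from RefSeq (GRCm38.p6). Each CpG is in capitals, and each sequence is read on the gene's plus strand. Hoxd8 (chr2:74704365-74704614) has 6 CpGs, Nkx2-3 (chr19:43612075-43612324) has 14, and the collagen gene Col3a1 (chr1:45311288-45311537) has 0.
Hoxd8: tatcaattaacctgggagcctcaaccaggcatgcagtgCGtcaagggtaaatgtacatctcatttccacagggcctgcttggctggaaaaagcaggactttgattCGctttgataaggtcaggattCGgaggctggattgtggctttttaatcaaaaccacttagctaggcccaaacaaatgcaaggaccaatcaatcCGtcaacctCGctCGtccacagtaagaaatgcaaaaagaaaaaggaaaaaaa
Nkx2-3: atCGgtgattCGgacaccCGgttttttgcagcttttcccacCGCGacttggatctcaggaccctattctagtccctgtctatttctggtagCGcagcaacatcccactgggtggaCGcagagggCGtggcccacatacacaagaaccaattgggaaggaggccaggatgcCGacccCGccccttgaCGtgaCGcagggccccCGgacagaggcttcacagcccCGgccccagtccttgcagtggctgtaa
Col3a1: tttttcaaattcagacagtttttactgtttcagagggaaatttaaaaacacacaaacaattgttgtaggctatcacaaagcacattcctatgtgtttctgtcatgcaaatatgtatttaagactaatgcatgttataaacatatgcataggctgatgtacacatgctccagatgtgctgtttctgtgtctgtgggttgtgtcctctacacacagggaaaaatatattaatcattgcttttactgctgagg

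Such a window was matched for 13824 of the 22046 protein-coding genes, and the motif counted was CG, which reads the same on both strands. The median was 12 CpGs over these genes and 16 over the 8927 matched genes that passed the filter. Matched Hox and classic Polycomb genes (56 of 115) had a median of 16.5. Genes called higher in cKO (179 matched) had a median of 16, and genes called lower (97 matched) a median of 9. A count of CpGs describes these windows and says nothing of binding.

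Across the genes that passed the filter, differences were small. A gene was called when its log2 fold change on the log2(FPKM + 1) scale exceeded 0.4 in size at an unadjusted p under 0.05, the thresholds of the study. By limma, 412 of 12924 genes (3.19%) were called, 257 (1.99%) higher in cKO and 155 (1.20%) lower. Adjusted over all genes fitted, 0 genes passed at 0.05, with 773 (5.98%) at an unadjusted p under 0.05 and a smallest adjusted p of 0.157. Where nothing differs, a threshold of 0.05 on the unadjusted p admits close to that share of genes, so the counts are a description. On recovered reads limma-voom gave 343 higher (2.65%) and 301 lower (2.33%), with 4 genes (0.0310%), all higher, at an adjusted p under 0.05. These 4 were Tmsb10, Rpl23a, Sumo2 and Skap2, an adaptor gene named after its values were seen. The median log2 fold change was 0.49 for genes called higher and -0.51 for those called lower, and 8 and 5 of them exceeded 1 in size. The counts were 423 and 143 without control 1, 508 and 471 without control 2, 113 and 75 without cKO 1, and 118 and 54 without cKO 2.

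The fold change moved with transcript composition. Genes called higher had a median GC content of 55.4% in their longest transcript, and genes called lower 42.6%, against 49.8% over all genes tested. Median gene length was 2316 bases for the first, 3776 bases for the second and 4497 bases over all. Over 7511 genes above 5 FPKM, Spearman's rho of the fold change with GC content was 0.52, where the difference between the 2 controls gave -0.05 and that between the 2 cKO libraries -0.04. Gene length gave -0.13 with the genotype difference and 0.49 with the difference of control 2 from control 1. The points are genes of the same 4 libraries and are not independent. With each library corrected for GC content, 147 genes (1.14%) were called higher and 113 (0.874%) lower, of which 124 and 71 were among the calls above. The part of GC content in each gene's result was not tested beyond this correction.

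**Figure D2:**
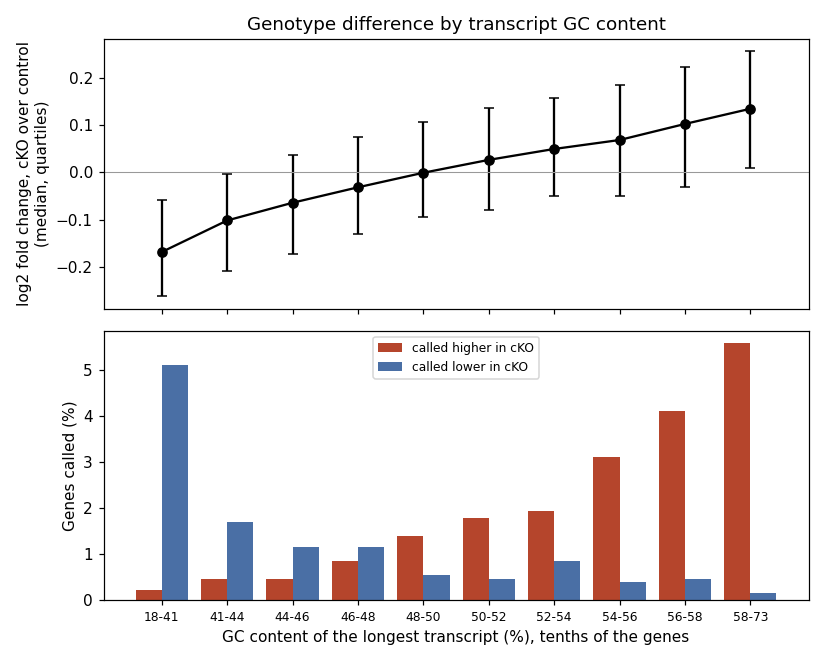
Genotype difference in 10 equal groups of the protein-coding genes ordered by GC content of the longest transcript; the upper panel gives the median log2 fold change with quartiles and the lower panel the percent of genes called. The median went from -0.17 in the group of lowest GC content to 0.13 in the highest, and the share called higher from 0.232% to 5.57%.

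The rises named by rule were taken in order of p. Sumo2, which encodes a small ubiquitin-like modifier, was at 13.2 and 12.7 FPKM in controls and 45.5 and 41.1 FPKM in cKO. Its log2 fold change was 1.67 ± 0.11 (limma, adjusted p = 0.157). Tmsb10, an actin-binding thymosin, was at 136 and 127 FPKM against 297 and 286 FPKM, with a log2 fold change of 1.14 ± 0.11. The ribosomal protein gene Rpl23a was at 87.5 and 81.7 FPKM against 185 and 177 FPKM. In all 3 genes the cKO libraries were over 2 times the controls, and the groups did not overlap, as the rule required.

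The other 7 rises named by rule were Ppp1r14b, a phosphatase inhibitor, Pdap1, the coactivator Edf1, the chromatin architectural factor Hmga1, the secretory granule protein gene Chgb, and the predicted genes Gm6793 and Gm10282, with log2 fold changes of 0.68 to 1.00. All 10 remained called in each alternative that kept these thresholds, GC correction and the leaving out of any library included. By limma-voom on genes with at least 10 reads the adjusted p was 0.0005 for Sumo2, 0.0011 for Tmsb10 and 0.0039 for Rpl23a. Ribosomal, Sumo and Gm genes have near-identical copies in the genome, between which reads can be split, so their levels are uncertain.

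Levels of these genes also varied among libraries elsewhere in the series. In cortex, tabulated separately, Sumo2 was at 114 and 29.8 FPKM in 2 controls and at 95.4 and 130 FPKM in 2 Kdm2b cKO libraries. Tmsb10 was at 928 and 613 FPKM against 895 and 999 FPKM. The second cortical control was thus the lowest of its 4 libraries in both genes, and also in Pdap1 (42.7 and 27.7 against 37.3 and 43.7 FPKM). In the Kdm2b hippocampal table Sumo2 stood at 111 to 123 FPKM in controls and 110 to 123 FPKM in cKO.

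The 10 falls named by rule, also in order of p, were Gm17545, Col3a1, Abca1, Mob4, Zfp938, Ifi27, Ube2l6, Neto2, Ptprz1 and Rpl7a. Gm17545 is 72 bases long and rested on 9 and 5 reads in controls against 1 and 1 reads in cKO. Abca1, the cholesterol exporter, was at 12.1 and 14.0 FPKM in controls and 7.83 and 8.32 FPKM in cKO, a log2 fold change of -0.63 ± 0.13 (limma, adjusted p = 0.517). Ptprz1, a receptor phosphatase of radial glia and astrocytes, was at 61.2 and 58.7 against 44.6 and 42.8 FPKM. Neto2, a kainate receptor auxiliary subunit, was at 61.0 and 56.7 against 43.2 and 41.3 FPKM. In all 4 genes the cKO libraries were below both controls, as the rule required. After GC correction Ptprz1, Neto2 and Mob4 were no longer called. Mob4 (-0.46), Ube2l6 (-0.65) and Rpl7a (-0.46) lost the call without cKO 1, and Neto2 (-0.44) and Ptprz1 (-0.42) without cKO 2. Gm17545, Col3a1, Abca1, Zfp938 and Ifi27 kept it without each library in turn. Gm17545 was not called by limma-voom on genes with at least 10 reads (unadjusted p = 0.107).

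**Figure D3:**
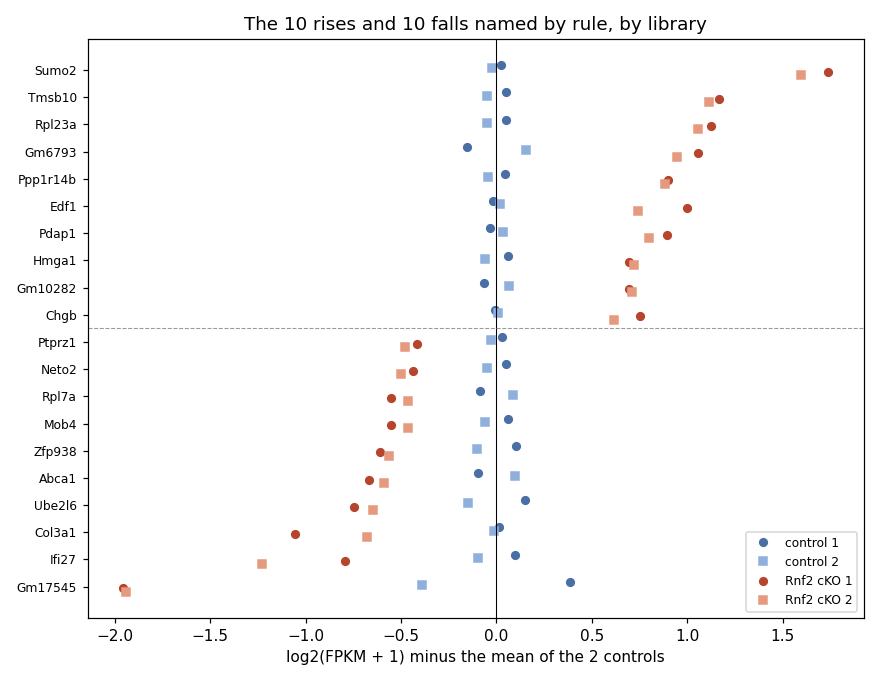
Level of the 10 rises and 10 falls named by rule in each library, as log2(FPKM + 1) minus the mean of the 2 controls; circles are library 1 and squares library 2 of each group. The cKO libraries stood apart from both controls for each gene, which the rule required, and Gm17545 rested on 16 reads in all.

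The 3 lists of PRC1 subunits had 0 of 4, 0 of 12 and 1 of 18 members called, where 3.19% of all genes were. The other 3 shared PRC1 subunits were not called, and Ring1, the paralog of Rnf2 that can also act as the ligase, was at 3.94 and 4.12 FPKM in controls and 4.52 and 6.63 FPKM in cKO (log2 fold change 0.37, limma, adjusted p = 0.731). Of 12 canonical PRC1 subunits 0 were called, with a median log2 fold change of 0.30 against 0.00 over all genes tested. After GC correction the median of the 12 was 0.19. Bmi1, of the canonical complex, was at 40.1 and 42.0 against 47.1 and 54.0 FPKM, a log2 fold change of 0.29 that became 0.42, and was called, after GC correction. The chromodomain gene Cbx2 was at 3.31 and 3.32 against 4.22 and 4.59 FPKM, and 7 of the 12 had both cKO libraries above both controls, as did 20.0% of all genes tested. Of 18 variant PRC1 subunits 1 was called higher. This was Auts2, a brain-expressed partner of PCGF3 and PCGF5 complexes, at 8.51 and 12.4 FPKM against 14.0 and 15.4 FPKM. It lost the call after GC correction. Kdm2b itself was at 11.9 and 13.4 against 13.5 and 13.2 FPKM.

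Among 13 PRC2 subunits tested 1 was called. Epop, an accessory subunit that links PRC2 to elongin, was at 8.38 and 7.14 FPKM in controls and 13.3 and 16.6 FPKM in cKO, a log2 fold change of 0.86 ± 0.15 (limma, adjusted p = 0.501). The groups did not overlap, and the call held in each alternative that kept the thresholds. The core subunits Ezh2, Suz12 and Eed had log2 fold changes of 0.01, -0.21 and -0.24 and were not called. None of 7 H2A deubiquitinases, which remove the PRC1 mark, was called.

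Wnt signaling drives hippocampal development from the cortical hem, and the study examined it in Kdm2b mutants and in Rnf2 cKO hippocampi. The study reported genes of the Wnt pathway and of neurogenesis as raised in the Kdm2b mutants and not significantly altered in Rnf2 cKO. Of the ligands 19 were listed and 10 passed the filter, with 0 called and a median log2 fold change of 0.16. Wnt3a, the hem ligand needed to form the hippocampus, was at 0.702 and 0.885 FPKM in controls and at 0.636 and 2.60 FPKM in cKO. Wnt8b, also of the hem, was at 2.197 and 2.70 against 1.83 and 4.65 FPKM. In both genes cKO 1 was the lowest library and cKO 2 the highest, so the direction turned on 1 library. Without cKO 1 both would be called higher, at log2 fold changes of 1.01 and 0.72, and without cKO 2 the values were -0.13 and -0.28. Wnt7b, of the cortical neuroepithelium, was at 20.0 and 16.7 against 19.3 and 18.8 FPKM.

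Of 15 receptors tested 1 was called higher, the non-canonical receptor Ror2, at 1.02 and 1.02 FPKM against 1.53 and 2.43 FPKM. Of 13 secreted modulators 2 were called higher. Sfrp2, a secreted Wnt-binding protein of hippocampal progenitors, was at 2.82 and 2.57 FPKM in controls and 4.33 and 4.56 FPKM in cKO, a log2 fold change of 0.56 ± 0.13 (limma, adjusted p = 0.59). Porcn, the acyltransferase that readies Wnt proteins for secretion, was at 10.4 and 11.3 against 14.1 and 16.05 FPKM. Both cKO libraries exceeded both controls in both genes. Sfrp2 held after GC correction and Porcn and Ror2 did not. Without cKO 2 Sfrp2 was at 0.53 and no longer called.

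Of 27 transducers and feedback targets 1 was called higher, the feedback inhibitor Nkd1, at 4.59 and 4.34 FPKM against 5.68 and 7.84 FPKM. Axin2, the most used readout of canonical signaling, was at 4.41 and 5.10 against 4.89 and 6.35 FPKM (log2 fold change 0.20, limma, adjusted p = 0.805). Lef1, a nuclear effector needed for the dentate gyrus, was at 1.54 and 1.81 against 1.67 and 2.07 FPKM (log2 fold change 0.10, limma, adjusted p = 0.922). Their groups overlapped. Over the 4 Wnt lists 65 genes were tested, with 4 called higher and 0 lower, where 1.99% and 1.20% of all genes were. Of the 4, Sfrp2 and Nkd1 were called after GC correction, and Nkd1 was lost without either control (0.52 and 0.46) and without cKO 2 (0.29).

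Radial glia are the stem cells of the hippocampal neuroepithelium. Of 25 radial glia and progenitor factors tested 3 were called higher and 0 lower, where 1.99% and 1.20% of all genes were, and the median log2 fold change was 0.12. Emx1, a dorsal telencephalic homeobox gene, was at 11.7 and 12.9 FPKM in controls and 16.7 and 16.9 FPKM in cKO. The cKO mice carry Emx1-Cre, and the sources used here do not say whether the controls do. The part of Emx1-Cre in the Emx1 level was not tested. Dmrt3, a factor of the medial pallium, was at 4.59 and 3.93 against 5.98 and 7.29 FPKM. The Notch effector Hes1 was at 3.87 and 2.37 against 5.08 and 4.79 FPKM. Dmrt3 and Hes1 remained called after GC correction, while Emx1 had a log2 fold change of 0.42 before it and 0.17 after it. Each of the 3 calls was lost when some single libraries were left out. Hes1, at 0.55, was lost without control 2 (0.28), cKO 1 (0.52) or cKO 2 (0.59). Dmrt3, at 0.54, was lost without control 2 (0.45) or cKO 2 (0.41), and Emx1 was lost without control 1 (0.36), cKO 1 (0.43) or cKO 2 (0.42). Pax6, a determinant of cortical radial glia, was at 3.08 and 2.87 against 3.11 and 3.52 FPKM and was not called.

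Of 15 genes of the neurogenic cascade 1 was called higher, Insm1, a zinc finger factor of delaminating progenitors, at 32.1 and 35.4 FPKM against 48.3 and 46.2 FPKM. Its call was lost after GC correction. Neurog2, the proneural factor that starts the cascade, was at 8.88 and 10.6 FPKM in controls and 7.42 and 8.52 FPKM in cKO, a log2 fold change of -0.26 ± 0.14 (limma, adjusted p = 0.738). Eomes, the marker of intermediate progenitors, was at 13.4 and 18.9 against 17.3 and 16.5 FPKM. Neither passed the test.

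The effect of Rnf2 loss was compared with that of losing the CxxC domain of Kdm2b, in 3 Kdm2bEmx1-delta-CxxC and 3 control hippocampal libraries of the same age. Each effect was taken within its own table, and the difference of the effects was tested over 12672 genes with limma. At the same thresholds the Rnf2 effect was higher for 522 genes (4.12%) and lower for 585 (4.62%), and 100 genes (0.789%) passed at an adjusted p under 0.05. That last count was 356 without control 1, 562 without control 2, 40 without cKO 1 and 60 without cKO 2, and 62 with the replicate number as a block. Neurog2 was at 8.69 to 10.7 FPKM in Kdm2b controls and 24.8 to 30.7 FPKM in Kdm2b cKO. The difference of effects, Rnf2 minus Kdm2b, was -1.68 ± 0.17 on the log2 scale (adjusted p = 0.0021). Eomes, at 13.4 to 16.3 against 32.8 to 36.5 FPKM in the Kdm2b libraries, had a difference of -1.07 ± 0.18 (adjusted p = 0.0222). Lef1, at 4.88 to 5.18 against 12.4 to 13.6 FPKM there, had a difference of -1.09 ± 0.14 (adjusted p = 0.00758).

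These 3 genes had higher values in each Kdm2b mutant library than in each of its controls and were not called in Rnf2 cKO. Leaving out any library of the Rnf2 table gave differences of -1.80 to -1.56 for Neurog2, -1.31 to -0.84 for Eomes and -1.19 to -0.99 for Lef1. Of the 65 Wnt genes in both tables Lef1 was the 1 gene that passed, and of the 25 radial glia factors 2 passed, Sox9 and Id4, with differences of -0.81 and -0.78. Sox9 and Id4 are named for this count after their values were seen. Pax6 (-0.71, adjusted p = 0.0758), Wnt8b (-0.94, adjusted p = 0.255), Axin2 (-0.35, adjusted p = 0.3) and Sfrp2 (-0.50, adjusted p = 0.191) did not. For Sfrp2 the log2 fold changes were 0.56 in the Rnf2 and 1.06 in the Kdm2b comparison. The 2 tables were normalized separately. Xist, the RNA of the inactive X chromosome, had a log2 fold change of -0.07 in the Rnf2 and 2.39 in the Kdm2b comparison, and its part in the differences was not tested.

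**Figure D4:**
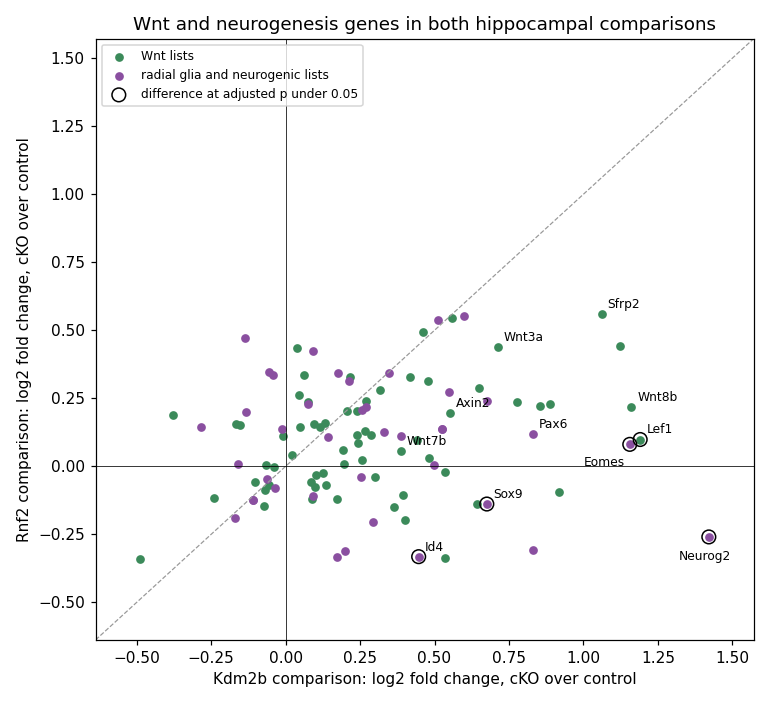
Log2 fold change of Wnt list genes (green) and radial glia and neurogenic list genes (purple) in the Kdm2b comparison (horizontal axis) and in the Rnf2 comparison (vertical axis), with the line of equal effects dashed. Neurog2 lies at 1.42 and -0.26, and circles mark the 5 genes whose difference passed at an adjusted p under 0.05.

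Proliferation genes were called at 1 of 23, 0 of 24 and 1 of 9 in 3 lists, where 3.19% of all genes were. Of 23 S phase genes 1 was called lower, the clamp loader subunit Rfc4, at 9.77 and 11.3 FPKM against 7.97 and 6.97 FPKM. Rfc4 lost the call after GC correction (-0.36) and without control 2 (-0.35), cKO 1 (-0.53) or cKO 2 (-0.36). Of 24 G2/M genes 0 were called, with a median of -0.17. The sum of their levels was 120 and 152 FPKM in controls and 94.1 and 142 FPKM in cKO, so library 1 of each group was the lower. Of 9 D cyclins and CDK inhibitors tested, Cdkn2b was the member called.

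Lists of hippocampal neurons had 2 of 10, 2 of 22 and 0 of 30 members called, where 3.19% of all genes were. Of 10 dentate granule cell genes tested 2 were called lower. Ntf3, a neurotrophin, was at 2.34 and 2.36 FPKM against 1.41 and 1.19 FPKM. It kept the call after GC correction but not without cKO 2 (-0.47). Calb1, the calcium buffer calbindin, was at 4.96 and 3.73 against 2.997 and 2.93 FPKM and lost the call after GC correction. Prox1 was at 19.5 and 22.7 against 20.8 and 21.4 FPKM, a log2 fold change of 0.00. Of 22 pyramidal and field genes, Nfix, a nuclear factor I gene, was called higher (204 and 264 against 317 and 302 FPKM) and the ETS factor Etv1 lower (5.15 and 4.73 against 3.38 and 3.08 FPKM). Neither held after GC correction. Of 30 glutamatergic and synaptic genes 0 were called. Of 36 axon guidance genes Slit1 was called higher and Epha5 and Sema3e lower, and of these Epha5 held after GC correction, though not without cKO 2 (-0.39). Epha5, an ephrin receptor, was at 24.1 and 25.5 against 18.7 and 14.97 FPKM.

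Factors of the ventral telencephalon, which are Polycomb-silenced in the dorsal lineage, had 17 of 21 members tested and 1 called. Dlx2, a homeobox gene of interneuron progenitors, was at 8.36 and 6.80 FPKM in controls and 11.8 and 11.4 FPKM in cKO, a log2 fold change of 0.56 ± 0.14 (limma, adjusted p = 0.592). It held after GC correction and was lost without cKO 1 (0.53) and without cKO 2 (0.59). Interneurons in the tissue express Dlx2 and are not of the Emx1 lineage. In bulk tissue more cells of a type and more RNA per cell cannot be told apart. Of 13 markers of striatum and interneurons, Dlx2 and Ppp1r1b were called higher. Ppp1r1b lost the call after GC correction (0.26), where 1 marker of the list was called higher and 1 lower.

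**Figure D5:**
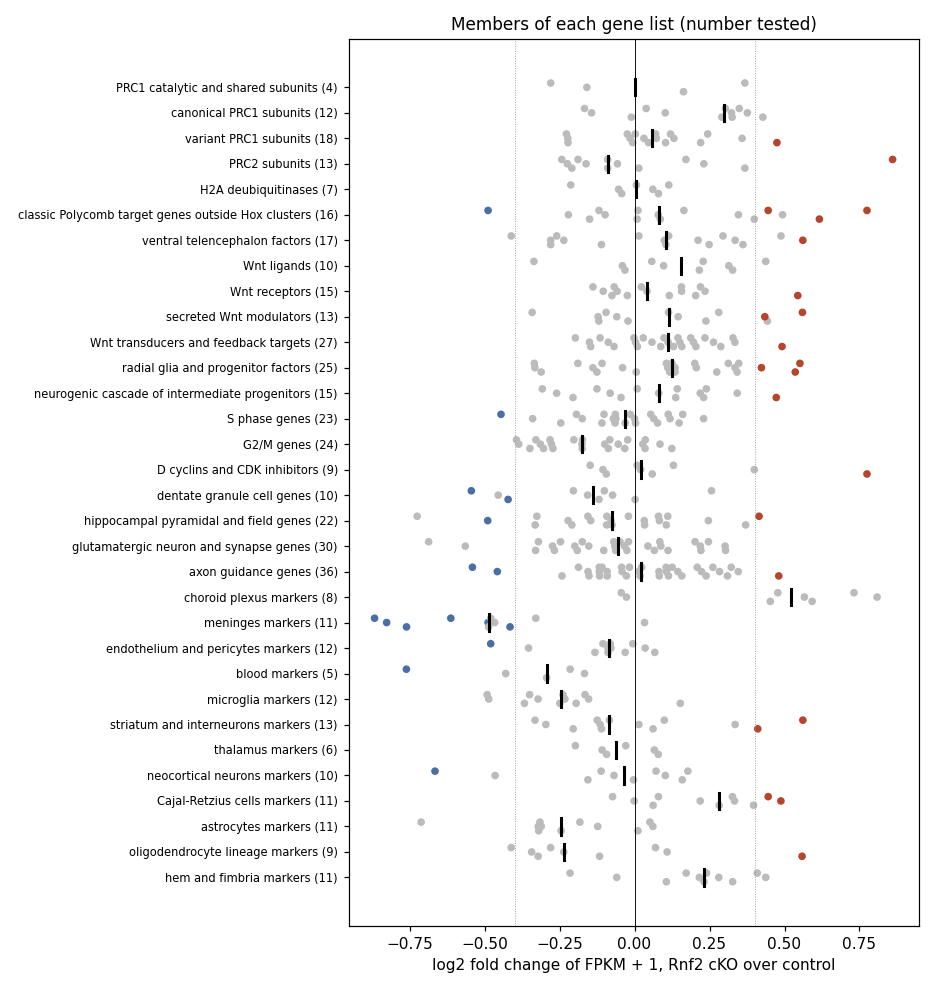
Log2 fold change of each tested member of the lists, with the number tested in parentheses; red points were called higher in Rnf2 cKO, blue points lower and grey points not called, and black bars are medians. Meninges markers lay lowest, with a median of -0.49 and 6 of 11 called lower, while most lists lay close to 0.

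Meningeal fibroblasts cover the hippocampus and lie outside the Emx1 lineage. Of 11 meninges markers 6 were called lower in cKO, where 1.20% of all genes were, and 0 higher. Col3a1, a fibrillar collagen, was at 10.4 and 10.3 FPKM in controls and 4.46 and 6.09 FPKM in cKO, a log2 fold change of -0.87 ± 0.16 (limma, adjusted p = 0.517). Col1a2 was at 6.41 and 6.77 against 2.77 and 4.33 FPKM, and Col1a1 at 8.89 and 11.5 against 4.15 and 6.61 FPKM. Tbx18, Slc6a13 and Lum were the other 3. Summed over the list the level was 48.5 and 46.6 FPKM in controls and 22.7 and 32.04 FPKM in cKO. The count was 5 after GC correction, 3 without either control, 1 without cKO 1 and 5 without cKO 2. How much meninx each dissection held was not tested.

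Choroid plexus markers had 0 of 8 called, where 3.19% of all genes were. Their sum was 63.3 and 20.6 FPKM in controls and 259 and 16.3 FPKM in cKO, led by the Ttr levels given above. Of 12 endothelial and pericyte markers Rgs5 was called lower, and of 5 blood markers tested Hba-a2 was. After GC correction Rgs5 lost the call (-0.36) and Hba-a2 kept it (-0.86). Of 12 microglia markers 0 were called, with a median of -0.24 and a sum of 104 and 62.9 against 71.5 and 58.6 FPKM. Astrocyte markers had 0 of 11 called, hem and fimbria markers 0 of 11 and thalamus markers 0 of 6. Of 10 markers of neocortical neurons Lmo3 was called lower (37.0 and 24.3 against 19.5 and 17.7 FPKM). Lmo3 lost the call without control 1 (-0.37), cKO 1 (-0.73) or cKO 2 (-0.60). Of 11 Cajal-Retzius markers Lhx1 and Ebf3 were called higher, where 1.99% of all genes were, with a median of 0.28. After GC correction Ebf3 kept the call and Lhx1 lost it. Lhx1 was also lost without control 1 (0.37), cKO 1 (0.48) or cKO 2 (0.41). Ebf3 was lost without control 1 (0.36), cKO 1 (0.56) or cKO 2 (0.42). In the oligodendrocyte lineage Mbp was called higher, 1 of 9, while 6 of the 9 were below 0 and the median was -0.24. Mbp lost the call without control 1 (0.62), control 2 (0.50) or cKO 1 (0.36).

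Of 12 interferon and antigen presentation genes tested 3 were called lower and 1 higher, where 1.20% and 1.99% of all genes were. After GC correction 2 were lower and 0 higher, with B2m at -0.39 and Isg15 no longer called. B2m, the light chain of class I MHC, was at 52.2 and 46.1 FPKM in controls and 31.6 and 37.2 FPKM in cKO. Ifi27 was at 2.46 and 2.02 against 0.866 and 0.379 FPKM, and Ifitm3 at 13.0 and 11.6 against 8.21 and 9.30 FPKM. Isg15 went the other way, at 0.442 and 0.765 against 1.20 and 1.47 FPKM. Of 7 Sumo and thymosin genes Sumo2 and Tmsb10 were the 2 called. Immediate early genes (11 tested), stress and hypoxia genes (12) and p53 targets (14) had 0 called.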

How the data were processed

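RNA of P0 hippocampi was made into poly(A) libraries and sequenced. The deposited values are FPKM per Ensembl gene made by the authors. The submitters' processing notes name cutadapt, STAR, Cufflinks 2.2.1 and DESeq2 with mm10 (GRCm38), and which of these made this table is not given in the sources used here. FPKM times gene length gave whole reads in 100% of values within 0.1 of a read, giving 14654894 to 16334420 reads on genes per library. These are 97.9% to 101% of the library totals to which the FPKM steps correspond. Median ratios of the 4 libraries were 1, so the deposited FPKM were on that scale already.

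The 15770 genes averaging 0.5 FPKM or more were fitted as log2(FPKM + 1) with limma 3.58.1 in R 4.3.3 (eBayes with a trend), and protein-coding genes are reported. The call thresholds (0.4 on the log2 scale, unadjusted p of 0.05) are those of the study, and adjusted p values are Benjamini-Hochberg. The study's own test was DESeq2 on counts, which was not run on FPKM. The floor for genes at 0 was 3 reads over a group. GC content was that of the longest GENCODE M21 transcript, and its trend was removed from each library by a lowess fit (span 0.3). In the Kdm2b hippocampal table, entries naming several genes were split, and of entries sharing a name the most expressed was taken. Cortical values are given as levels only. Values of some single genes are not reported here. The 39 gene lists and the members were chosen with earlier results of these data known. Named genes were Rnf2, called PRC1 and PRC2 subunits, 10 rises and 10 falls (called genes whose groups did not overlap, in order of p, since 0 passed the adjusted p), up to 4 called members per list, and 10 Wnt and neurogenesis genes of the study. No label pairs libraries by replicate number. Deviations from the group mean correlated at 0.16 for control 1 with cKO 1 and at -0.16 for control 1 with cKO 2. With 2 libraries per group these values mirror each other, so they cannot show whether libraries are paired. The fit was tested on data simulated for all genes fitted, with a single dispersion for every gene. There the thresholds called most genes given a change well above the threshold, and no changed gene passed the adjusted p. They also called a share of unchanged genes no smaller than the share of protein-coding genes called here. Since the simulated spread is not that of each gene, this share cannot tell how many calls here are noise.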

Additional observations from a re-analysis of the deposited data

Results flagged for a closer look

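The Rnf2 effect differed from the Kdm2b effect in hippocampus, by a test of the difference itself (limma, adjusted p under 0.05), for 15 of the genes named. On the log2 scale, Rnf2 minus Kdm2b, it was higher for Sumo2 (1.67), Tmsb10 (1.11), Gm6793 (0.99), Rpl23a (0.96), Pdap1 (0.93), Edf1 (0.89), Chgb (0.85) and Ppp1r14b (0.77). It was lower for Neurog2 (-1.68), Ube2l6 (-1.15), B2m (-1.15), Lef1 (-1.09), Eomes (-1.07), Abca1 (-0.93) and Rpl7a (-0.58). For the first 8 genes and for Abca1, Ube2l6, Rpl7a and B2m the Rnf2 fold change was itself called. B2m lost that call after GC correction (-0.39). The first 8 had Kdm2b fold changes of -0.17 to 0.13. B2m, Ube2l6 and Abca1 went the other way in the Kdm2b comparison, at 0.64, 0.45 and 0.30, and Rpl7a was at 0.07. Neurog2, Lef1 and Eomes were not called in Rnf2 cKO and had Kdm2b fold changes of 1.42, 1.19 and 1.16. Levels could differ between the tables, which were made separately: Tmsb10 was at 1293 to 1551 FPKM in the Kdm2b table and 127 to 297 FPKM in the Rnf2 table. No group has more than 3 libraries, so no single library could be tested as an outlier.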

How the results depend on the processing

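The counts of 257 higher and 155 lower genes depended on the libraries. Leaving out 1 library in turn gave 113 to 508 higher and 54 to 471 lower. Correction for GC content gave 147 higher, and for GC content and length 150 higher. With no fold change threshold 485 were higher and 288 lower, and at an adjusted p under 0.05 there were 0 of each. On recovered reads limma-voom gave 301 lower, and with all genes of at least 10 reads, an alternative chosen after seeing the data as the GC corrections were, 395 higher and 375 lower. With protein-coding genes fitted alone 249 were lower. With the replicate number as a block 242 were lower (304 higher), and the number ties no libraries by any label. The difference from the Kdm2b comparison was called for 1107 genes (977 to 1624 in the alternatives) and passed an adjusted p under 0.05 for 100. The fold change of Rnf2 was not called in any alternative. Of 54 called genes named, 16 kept their call without each library in turn and 34 after GC correction, 15 kept it in every alternative, and none changed sign. The causes were not tested. Depth limits the genes under 0.5 FPKM, whose reads are few, and 2 libraries per group limit all tests.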

Other observations

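Outside the rule for named genes, limma-voom over all genes with at least 10 reads gave 10 protein-coding genes at an adjusted p under 0.05, of which 9 were higher. They are named after their values were seen. Besides Sumo2, Tmsb10, Rpl23a, Ppp1r14b, Pdap1, Gm6793 and Col3a1 they held Skap2, Gnas and Zfhx3. Skap2, an adaptor protein gene, had 145 and 106 reads in controls and 449 and 448 reads in cKO (adjusted p = 0.0112). It lies at chr6:51857422-52012549 (GRCm38). In the Kdm2b hippocampal table Skap2 was at 2.71 to 3.04 FPKM in controls and 1.53 to 2.80 FPKM in cKO, and in the Rnf2 table at 0.853 and 0.600 FPKM in controls and 2.39 and 2.44 FPKM in cKO. Zfhx3, a large zinc finger homeobox gene, had 42 and 69 reads in controls and 226 and 255 reads in cKO (adjusted p = 0.0285) and was under the FPKM filter. Gnas, an imprinted locus that encodes the stimulatory G protein subunit, was at 3.18 and 3.91 FPKM against 7.77 and 6.92 FPKM (adjusted p = 0.019). Homeobox family genes that passed the filter had 4 of 49 called higher and 0 lower, where 1.99% and 1.20% of all genes were, with a median log2 fold change of 0.09. After GC correction 1 was called, Dlx2, while Emx1, Lhx1 and Vax1 were not. The part of Emx1-Cre, which the cKO mice carry, in the Emx1 level was not tested.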
